A study of Homo sapiens with 16 samples.

Results

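The genes described here encode the proteins of the mitochondrial ribosome. They were chosen by symbol alone, as every row of the count tables named MRPL or MRPS followed by a number and at most 1 further letter, which gave 77 of 26364 genes (48 MRPL genes of the large subunit and 29 MRPS genes, mostly of the small subunit). Established human lines, Ishikawa (from an endometrial adenocarcinoma) and T-47D (from a breast carcinoma), were kept in hormone-deprived medium for several days and then treated with 10 nM 17β-estradiol (E2), the ligand of the estrogen receptor, for 2, 4 or 8 h. The 0 h cells of each line received vehicle. Bulk RNA-seq of poly(A) RNA was measured in 2 libraries for each of the 4 time points and 2 cell lines, 16 libraries in all. Every group is 1 tumor cell line, kept without hormone before the treatment. Nothing in the labels says that the libraries of a group came from separate cultures, so p-values measure only the spread between these libraries.

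The mitochondrial ribosome translates the few messenger RNAs encoded in mitochondrial DNA, all of which specify membrane subunits of the respiratory chain and of ATP synthase. Its RNA is made inside the organelle, but its proteins are encoded in the nucleus, translated in the cytosol and imported, so that their supply depends on nuclear transcription. Many of these proteins have a counterpart in the bacterial ribosome, and others were added in the mitochondrial lineage. Promoters of nuclear genes for mitochondrial proteins are known for binding sites of NRF1, of the ETS factor GABPA and of YY1, and the coactivators PPARGC1A and PPARGC1B act through such factors.

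The promoters of all 77 genes were searched in the window from 250 bases before to 50 bases after the annotated start (GENCODE on GRCh37, the build of the counts), on both strands and with each motif counted separately where matches overlap. The ETS motif CCGGAAG was found in 31 of 77 promoters (40.3%), against 14.2% of 19038 protein-coding promoters. The YY1 motif AAGATGGC was found in 22 (28.6% against 4.13%) and the NRF1 consensus motif in 9 (11.7% against 8.55%). The E-box CACGTG, bound by MYC, was found in 7 (9.09% against 8.85%), and the palindromic estrogen response element in none, against 0.0368% of all promoters. The ETS motif was present in 26.7% of the 15 members that rose in Ishikawa cells, in 31.8% of the 22 that rose in T-47D cells and in 45.8% of the 48 that rose in neither. The YY1 motif was present in 33.3%, 22.7% and 27.1% of the same sets. These shares describe letters in a window and were not tested.

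The promoters of 7 members are printed. They are the 5 members called higher at 4 h and at 8 h in both lines (MRPL3, MRPL19, MRPL42, MRPS17 and MRPS23) and those with the largest rise in each line, MRPL1 and MRPL17. Some of these calls did not hold with an offset per library for GC content and transcript length, both of the canonical transcript. MRPL19 was then lost in Ishikawa cells at both times and in T-47D cells at 4 h. MRPL42 was lost in T-47D cells at 4 h and MRPS23 in Ishikawa cells at 8 h. For these genes the canonical transcript is longer than the median of the gene's basic protein-coding transcripts. An offset with that median length was not tested. Each promoter is given with 220 bases before the start and 30 after it, 5′ to 3′ on the strand of the gene. Capitals mark the matches. MRPL17 (chr11:6704542-6704791, minus strand) holds an NRF1 match that starts at position -81 from the start. MRPL3 (chr3:131221786-131222035, minus strand) and MRPS23 (chr17:55927376-55927625, minus strand) hold ETS matches at -32 and -14, the second on the opposite strand. MRPL42 (chr12:93861070-93861319, plus strand) holds a YY1 match that starts at position 9, after the start. MRPL1 (chr4:78783764-78784013), MRPL19 (chr2:75873689-75873938) and MRPS17 (chr7:56019350-56019599), all on the plus strand, hold none of the 5 motifs.
MRPL17: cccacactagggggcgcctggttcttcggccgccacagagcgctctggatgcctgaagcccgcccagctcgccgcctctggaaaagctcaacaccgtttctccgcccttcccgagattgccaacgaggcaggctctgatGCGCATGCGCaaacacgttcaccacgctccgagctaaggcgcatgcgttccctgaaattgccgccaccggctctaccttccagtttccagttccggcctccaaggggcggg
MRPL3: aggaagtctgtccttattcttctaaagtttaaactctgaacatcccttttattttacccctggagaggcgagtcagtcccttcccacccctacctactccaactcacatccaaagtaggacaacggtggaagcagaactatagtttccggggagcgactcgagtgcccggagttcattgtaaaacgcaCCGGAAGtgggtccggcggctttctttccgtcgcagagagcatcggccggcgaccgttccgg
MRPS23: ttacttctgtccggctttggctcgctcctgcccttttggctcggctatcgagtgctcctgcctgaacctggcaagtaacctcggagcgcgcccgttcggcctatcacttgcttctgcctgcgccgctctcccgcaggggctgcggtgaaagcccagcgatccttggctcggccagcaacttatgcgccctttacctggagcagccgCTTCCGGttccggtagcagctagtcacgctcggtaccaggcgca
MRPL42: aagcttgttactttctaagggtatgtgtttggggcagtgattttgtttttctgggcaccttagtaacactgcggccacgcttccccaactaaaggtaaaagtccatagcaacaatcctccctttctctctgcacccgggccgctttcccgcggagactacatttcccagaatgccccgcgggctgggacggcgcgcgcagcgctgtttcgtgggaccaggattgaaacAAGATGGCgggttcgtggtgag
MRPL1: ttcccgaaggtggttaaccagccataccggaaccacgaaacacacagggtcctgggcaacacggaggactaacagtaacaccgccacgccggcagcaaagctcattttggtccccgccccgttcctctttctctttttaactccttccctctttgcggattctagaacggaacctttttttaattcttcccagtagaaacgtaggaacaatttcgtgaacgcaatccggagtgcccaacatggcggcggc
MRPL19: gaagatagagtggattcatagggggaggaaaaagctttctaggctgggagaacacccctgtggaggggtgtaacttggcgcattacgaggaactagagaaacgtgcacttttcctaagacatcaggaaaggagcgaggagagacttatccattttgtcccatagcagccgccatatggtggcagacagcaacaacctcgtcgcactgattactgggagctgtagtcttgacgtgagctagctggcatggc
MRPS17: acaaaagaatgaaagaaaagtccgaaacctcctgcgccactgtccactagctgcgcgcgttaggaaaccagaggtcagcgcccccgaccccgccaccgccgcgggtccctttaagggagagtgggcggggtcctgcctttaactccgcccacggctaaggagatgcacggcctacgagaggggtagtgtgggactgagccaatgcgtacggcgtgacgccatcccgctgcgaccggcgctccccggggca

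Libraries held 41177912 to 64148903 counts. EPCAM and KRT8, epithelial markers, were expressed in both lines (EPCAM at 327 to 364 CPM in Ishikawa and 188 to 218 in T-47D cells). GATA3, a marker of luminal breast cells, reached 1020 to 1230 CPM in T-47D cells and at most 0.0889 in Ishikawa cells, while PAX8, a marker of Müllerian epithelium, had 190 to 319 CPM in Ishikawa and at most 0.0495 in T-47D cells. Of the other luminal genes listed, FOXA1, PGR and PRLR were higher in T-47D cells. ESR1, the gene of the estrogen receptor, was not, with 169 to 242 CPM in Ishikawa and 166 to 208 in T-47D cells. GREB1, a direct estrogen receptor target, rose at 8 h by 1.65 on the log2 scale in Ishikawa and by 2.15 in T-47D cells. CPM here is the count scaled to library size, with TMM factors over all 16 libraries. Markers of other cell types were counted from 6 genes. PTPRC, CD3E, PECAM1 and DCN were at most 0.866 CPM in either line, while COL1A1, a collagen, had 150 to 269 CPM in Ishikawa cells. The sum of the 6 was 253 to 276 CPM before E2 and 164 to 186 after 8 h in Ishikawa cells, and 88.1 to 94.6 and 72.8 to 80.3 in T-47D cells. Its part in the results was not tested. Among the late Ishikawa libraries, 2 pairs with different time labels differed less than the replicates of either label. Over 10971 genes, the root mean square log2 difference was 0.126 between 4 h replicate 1 and 8 h replicate 2 and 0.128 between 4 h replicate 2 and 8 h replicate 1, against 0.156 within 4 h and 0.146 within 8 h. Tested directly, 8 h and 4 h differed in 2 of 15787 genes in Ishikawa cells and in no member, with 3 members at an unadjusted p under 0.05. The number of members called is therefore also given for the 4 libraries as 1 group. Other Ishikawa values at 4 h and 8 h follow the time labels, except where the 1 group is named. Cell number and RNA per cell cannot be told apart in bulk counts, and every level is relative to the total of its library.

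Of the 77 members, 76 passed edgeR's filter on low counts in both lines. MRPS24, a small subunit protein, was left out with at most 4 counts per library, and it shares exons on the same strand with the readthrough gene URGCP-MRPS24. Together the members took 0.391% to 0.453% of the counts of a library. Divided by transcript length (the median of a gene's basic protein-coding transcripts), the median level was 43.8 CPM per kb in Ishikawa cells, with a range from 0.839 to 334, and 40.9 CPM per kb in T-47D cells, with a range from 2.05 to 406. The highest and lowest levels per length differed 398-fold and 198-fold. Both ranges rest on the lowest member, MRPS18B, which had only 1.17 and 2.86 CPM on average. The next lowest with this length, MRPL50, had 7.31 and 6.41 CPM per kb. Whether the low counts of MRPS18B come from low expression or from the mapping of its reads was not tested.

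The highest level per length in Ishikawa cells was that of MRPL51 at 334 CPM per kb, ahead of MRPL49 at 253 and MRPL12 at 110.1. In T-47D cells it was MRPL49 at 406 CPM per kb, ahead of MRPL41 at 119 and MRPL43 at 105. MRPL51, MRPL49, MRPL41 and MRPL43 are large subunit proteins with no bacterial counterpart, and MRPL12 forms the stalk that recruits translation factors. The order at the top depends on the length used, since with the canonical transcript MRPL49 had 63.6 CPM per kb in Ishikawa and 102 in T-47D cells, and MRPL51 had 205 and 52.6. MRPS18B, a small subunit protein encoded in the major histocompatibility complex (chromosome 6, 30585617 to 30594172), was lowest of the 76 in both lines with either length, at 0.839 and 2.05 CPM per kb. With the median length, MRPL50 at 7.31 and 6.41 CPM per kb was next in both lines, ahead of MRPS31 at 8.30 in Ishikawa and MRPS5 at 9.54 in T-47D cells. With the canonical transcript it was MRPL42, at 3.49 and 3.89 CPM per kb.

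Before E2, most members differed between the lines. In the fit over all 16 libraries (17090 genes), the quasi-likelihood test of edgeR (adjusted by Benjamini-Hochberg, threshold 0.05) called 36 members higher in T-47D cells (47.4%, against 39.5% of all genes tested) and 27 lower (35.5%, against 42.4%). The median difference was 0.13 on the log2 scale, and cell line, culture and processing in separate tables cannot be told apart. MRPL51 had the largest difference. Its level at 0 h was 184.1 and 184.5 CPM in Ishikawa and 46.4 and 48.8 CPM in T-47D cells, which was lower in T-47D cells (log2 difference -1.95, SE 0.06, adjusted p = 9.85e-18 by edgeR). MRPL22, which lines the exit tunnel of the large subunit, had 24.1 and 22.7 CPM in Ishikawa against 71.7 and 61.2 in T-47D cells (log2 difference 1.51). MRPL41 had 32.7 and 32.9 CPM in Ishikawa against 74.8 and 72.0 in T-47D cells (1.16), and MRPS18B had 1.51 and 0.815 against 2.82 and 2.72 CPM (1.25). The libraries of the 2 lines did not overlap at 0 h for any of these 4 genes. MRPS18B is near the floor, and its difference ranged from 0.88 to 1.78 over the fits that left out 1 library.

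After E2, the medians of the members lay above 0 by small amounts, at 4 h and 8 h more than at 2 h. Against 0 h, their median log2 fold change in Ishikawa cells was 0.02 after 2 h, 0.14 after 4 h and 0.07 after 8 h, and in T-47D cells 0.01, 0.04 and 0.09. The median over all genes tested lay between -0.01 and 0.01 in each of these comparisons. In Ishikawa cells 44, 72 and 55 of the 76 members were above 0 at 2, 4 and 8 h (57.9%, 94.7% and 72.4%, against 49.5%, 50.9% and 48.5% of all genes). In T-47D cells 41, 47 and 58 were above 0 (53.9%, 61.8% and 76.3%, against 47.7%, 49.2% and 50.5%). The 3 comparisons within a line share their 0 h libraries. Library by library, the median over members of log2(CPM + 1) minus the 0 h mean was 0.18 and 0.09 after 4 h and 0.02 and 0.10 after 8 h in Ishikawa cells, so the 8 h libraries of this line spanned much of the range. Without 8 h replicate 2 the Ishikawa 8 h median was 0.00, without 8 h replicate 1 it was 0.11. In T-47D cells it was 0.05 and 0.02 after 4 h and 0.09 and 0.10 after 8 h, and both 8 h libraries lay above all 6 others.

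**Figure D1:**
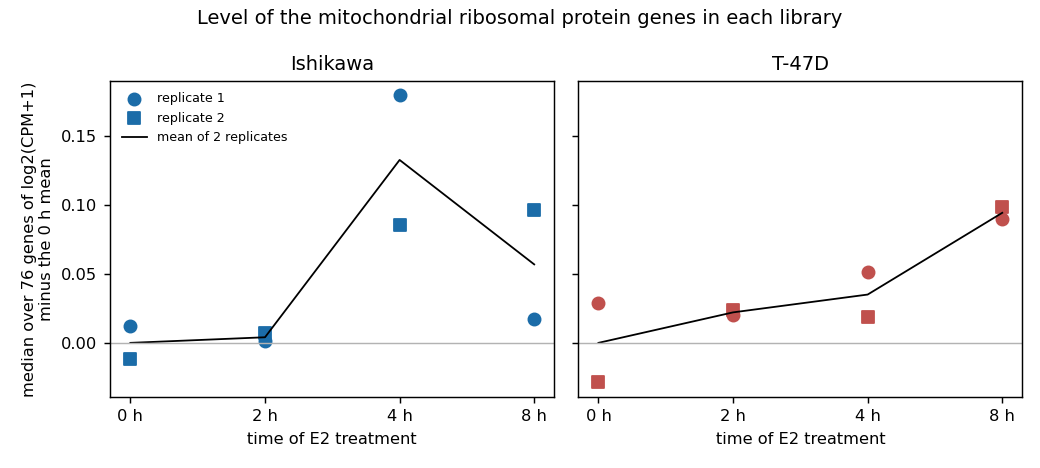
Median over 76 mitochondrial ribosomal protein genes of log2(CPM + 1) minus the mean of the 0 h libraries (vertical axis, log2 units) at each time of E2 treatment, in Ishikawa (left) and T-47D cells (right). Circles and squares are the 2 replicates and the line joins their means. In T-47D cells the 8 h libraries lie at 0.09 and 0.10, whereas in Ishikawa cells the 4 h libraries lie at 0.18 and 0.09.

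At 2 h no member passed the test in Ishikawa cells, where edgeR called 2.61% of all genes higher and 1.74% lower. There were 9 members at an unadjusted p under 0.05, the smallest adjusted p was 0.0823 by edgeR, and DESeq2 also called 0. Without 0 h replicate 1, 8 members passed. In T-47D cells 2 members rose at 2 h (2.63%, against 4.9% of all genes) and none fell (4.4%). They were MRPL17, a protein near the exit of the peptide tunnel, and MRPL15, a core protein of the large subunit. MRPL17 had 34.1 and 35.4 CPM before E2 and 40.2 and 40.3 CPM after 2 h (log2 fold change 0.20, adjusted p = 0.0413 by edgeR), without overlap. MRPL15 had 80.8 and 75.4 CPM before E2 and 87.0 and 88.9 CPM after 2 h (0.16, adjusted p = 0.0492), also without overlap. Both calls were lost without either 2 h library or without 0 h replicate 2. MRPL17 was also lost without 0 h replicate 1. The count was 1 without 4 h replicate 2, 4 without 0 h replicate 1 and 6 without either 8 h library.

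In Ishikawa cells 13 members rose at 4 h (17.1%, against 7.66% of all genes) and none fell (6.6% of all genes). At 8 h 10 rose (13.2%, against 12%) and none fell (10.1%). Of the 15 that rose at either time, 8 passed at both, 5 after 4 h and not 8 h (MRPL15, MRPL17, MRPL32, MRPL36 and MRPL39), and MRPL30 and MRPS10 after 8 h and not 4 h. No member passed when 8 h was tested against 4 h, so these sets do not separate the times. The 4 h count rested on single libraries: it was 1 (MRPL1) without 4 h replicate 1, 3 without 0 h replicate 2, and 7 without either 2 h library, and the 8 h count was 6 without 0 h replicate 2. With the 4 h and 8 h libraries as 1 group, 17 members rose against 0 h (22.4%, against 13.5% of all genes) and none fell (12.2%). Between 2 h and 8 h no member passed (1.06% of all genes higher and 1.17% lower), with 7 at an unadjusted p under 0.05 and 1 called by DESeq2. Without either 0 h library 2 passed.

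MRPL1, the homologue of the bacterial protein at the tip of the mobile stalk beside the exit site, had the largest rise in Ishikawa cells. Its level was 23.3 and 20.8 CPM before E2, 26.9 and 25.6 after 2 h, 29.0 and 29.8 after 4 h, and 31.4 and 33.4 after 8 h. No library of a treated time point overlapped the 0 h libraries. The means followed the order of the time labels, though no member passed between 4 h and 8 h. The log2 fold change was 0.26 after 2 h (adjusted p = 0.112), 0.42 after 4 h (adjusted p = 0.00342) and 0.55 after 8 h (SE 0.08, adjusted p = 0.00031) by edgeR. In T-47D cells its level lay between 19.0 and 21.0 CPM in all 8 libraries. There the 4 h libraries overlapped those of 0 h, and the 2 h and 8 h libraries lay just above them (log2 fold change 0.07 after 8 h, SE 0.08, adjusted p = 0.544).

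MRPS17, MRPL42 and MRPS35 followed MRPL1 after 8 h in Ishikawa cells. MRPS17, a small subunit protein with a bacterial homologue, had 22.2 and 19.9 CPM before E2 and 29.0 and 27.3 CPM after 8 h (log2 fold change 0.42, SE 0.08, adjusted p = 0.00214 by edgeR). MRPL42, a mitochondria-specific protein of the large subunit, had 51.6 and 42.8 CPM before E2 and 60.5 and 63.2 CPM after 8 h (0.39, adjusted p = 0.00312). For both, the 0 h and 8 h libraries did not overlap. MRPS35, a mitochondria-specific protein of the small subunit, had 113.4 and 99.4 CPM before E2, 120.0 and 117.6 after 2 h, 129.8 and 119.6 after 4 h, and 134.9 and 135.1 after 8 h. Its 8 h libraries were above all others (0.34, adjusted p = 0.00206). In T-47D cells the 8 h libraries of MRPS35 had 112.4 and 120.7 CPM, overlapping the 116.1 and 105.0 CPM of 0 h. The difference between the lines was not called for MRPS35 at any time, though it was at 8 h with the offset for GC content and length. MRPL3, a core protein of the large subunit named after its values were seen, was called at both times and had 132.2 and 118.7 CPM before E2 and 153.4 and 160.0 CPM after 8 h, without overlap (0.32, adjusted p = 0.00466). Of the other members called at 8 h, MRPS23 (0.20, adjusted p = 0.0384) passed in 3 of the 8 fits that left out a library, and it was lost with no filter on low counts (adjusted p = 0.0559) and with only the groups compared (adjusted p = 0.0993).

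In T-47D cells the largest response came at 8 h, when 21 members rose (27.6%, against 15.4% of all genes) and none fell (14.3%). At 4 h 7 rose (9.21%, against 11.1%) and 4 fell (5.26%, against 10.4%), so that the share called at 4 h was no higher than among all genes. Of the 21, 6 had also passed at 4 h (MRPL3, MRPL17, MRPL19, MRPL42, MRPS17 and MRPS23) and 15 had not, and of the 7 that rose at 4 h MRPL50 alone did not pass at 8 h. Between 2 h and 8 h 13 members rose (17.1%, against 9.53%) and none fell (7.23%). Leaving out 1 library moved the 8 h count between 18 and 23, and the count from 2 h to 8 h between 8 and 14, with 8 reached without either 2 h library. A single member (1) fell at 8 h without 0 h replicate 2, and 1 between 2 h and 8 h without 8 h replicate 2. The 4 h count of members that rose was 3 without 4 h replicate 1, 4 without 0 h replicate 2, and 14 without either 8 h library.

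**Figure D2:**
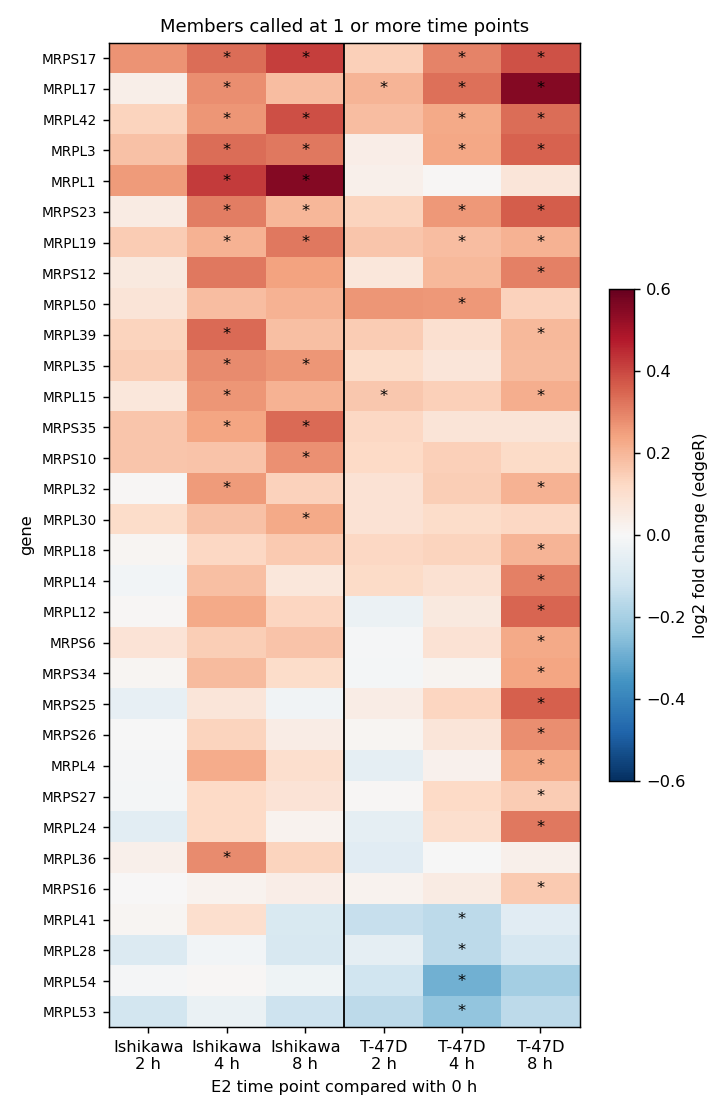
Log2 fold change against 0 h (color, edgeR) of every member called at 1 or more time points, with genes in rows and the time points of E2 treatment in columns, Ishikawa on the left and T-47D on the right. Asterisks mark an adjusted p under 0.05. In T-47D cells 21 members carry an asterisk at 8 h against 7 raised at 4 h, in Ishikawa cells 13 after 4 h and 10 after 8 h.

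MRPL17 had the largest rise in T-47D cells, and it was the only member called at 2, 4 and 8 h in that line. Its level was 34.1 and 35.4 CPM before E2, 40.2 and 40.3 after 2 h, 45.2 and 42.6 after 4 h, and 52.1 and 49.8 after 8 h. The 4 time points did not overlap. The log2 fold change was 0.33 after 4 h (adjusted p = 0.000494) and 0.55 after 8 h (SE 0.06, adjusted p = 1.21e-06), and 0.35 from 2 h to 8 h (adjusted p = 0.000381), by edgeR. In Ishikawa cells, where MRPL17 had 70.5 and 72.6 CPM before E2, it had 91.4 and 81.5 CPM after 4 h (0.28, adjusted p = 0.011) and 79.7 and 83.6 after 8 h (0.19, adjusted p = 0.056).

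MRPS17 rose in T-47D cells from 24.7 and 23.9 CPM before E2 to 30.8 and 29.1 after 4 h and 31.3 and 31.9 after 8 h (0.38 after 8 h, adjusted p = 0.000806 by edgeR). MRPS23, a mitochondria-specific protein of the small subunit, rose from 65.6 and 61.5 CPM before E2 to 78.0 and 74.7 after 4 h and 80.5 and 82.9 after 8 h (0.36, adjusted p = 4.09e-05). In both genes the 4 h and the 8 h libraries were all above the 0 h libraries. MRPS25, also a mitochondria-specific protein of the small subunit, had 61.1 and 61.0 CPM before E2, 64.3 and 62.4 after 2 h, 65.4 and 68.8 after 4 h, and 80.6 and 75.97 after 8 h, with the 8 h libraries above all others (0.36 after 8 h, adjusted p = 3.84e-05). MRPL12, whose response was picked out after its values were seen, carries the stalk of the large subunit and is also known to bind the mitochondrial RNA polymerase. It had 85.4 and 78.9 CPM before E2, 87.1 and 84.7 after 4 h, and 108.0 and 101.2 after 8 h (0.35 after 8 h, adjusted p = 5.97e-05). Its 8 h libraries were above all others of the line, while the 4 h libraries overlapped those of 0 h.

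The 4 members that fell at 4 h in T-47D cells were MRPL54, MRPL53, MRPL41 and MRPL28, all of the large subunit and named after their values were seen, except for MRPL41. MRPL54, a mitochondria-specific protein, had 23.9 and 21.5 CPM before E2, 19.1 and 18.2 after 4 h, and 20.2 and 19.3 after 8 h (log2 fold change -0.29 after 4 h, adjusted p = 0.0135 by edgeR, and -0.20 after 8 h, adjusted p = 0.0641). MRPL53 had a log2 fold change of -0.24 (adjusted p = 0.0373), MRPL41 of -0.16 (adjusted p = 0.0307) and MRPL28 of -0.16 (adjusted p = 0.0366) at 4 h by edgeR. None of the 4 passed at 8 h or in Ishikawa cells. These calls rested on single libraries: none passed without 0 h replicate 1 or without 4 h replicate 2, 1 passed without 0 h replicate 2 or either 2 h library, and 2 without 4 h replicate 1. With an offset per library for GC content and transcript length none of the 4 passed, at -0.18 for MRPL54 (adjusted p = 0.0959), -0.14 for MRPL53 (adjusted p = 0.21), -0.07 for MRPL28 (adjusted p = 0.266) and -0.01 for MRPL41 (adjusted p = 0.95).

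Across the lines, 9 members rose in both at some time, 60% of those that rose in Ishikawa and 40.9% of those that rose in T-47D cells. Over all 14307 genes tested in both lines these shares were 51.3% and 38.6%. They were MRPL3, MRPL15, MRPL17, MRPL19, MRPL32, MRPL39, MRPL42, MRPS17 and MRPS23. At 8 h the shared members were MRPL3, MRPL19, MRPL42, MRPS17 and MRPS23, 50% and 23.8% of the members called in each line (all genes: 45.6% and 35.5%), and none was called in opposite directions. The fold changes of the 2 lines, which share no libraries, had a Pearson correlation across the 76 members of 0.46 after 2 h, 0.60 after 4 h and 0.47 after 8 h, against 0.23, 0.22 and 0.25 across all 14307 genes tested in both. Genes are not independent replicates, and these values are descriptions. The same sign was seen in 49 of 76 members at 2 h, 49 at 4 h and 61 at 8 h, against 66.1%, 63.9% and 64.9% of all genes.

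**Figure D3:**
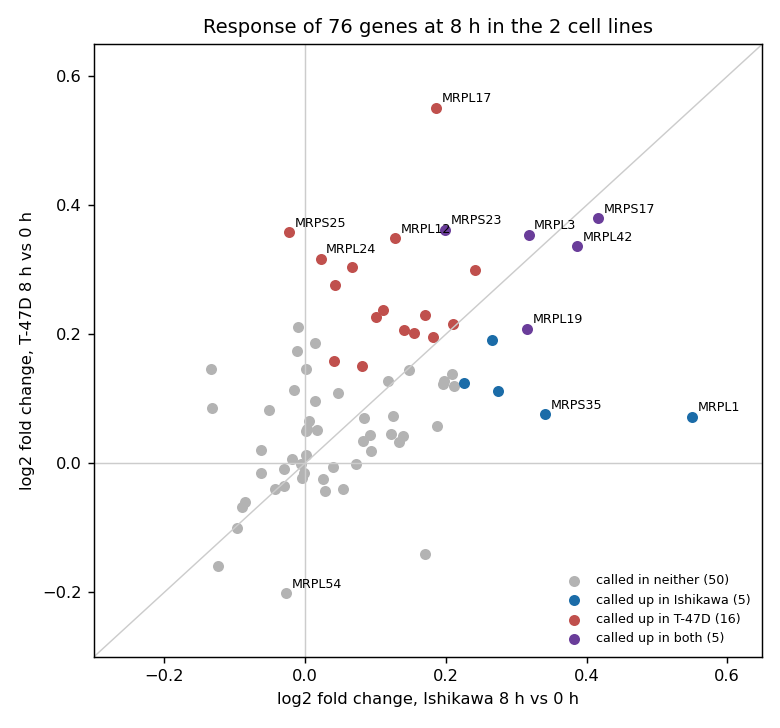
Log2 fold change at 8 h against 0 h in Ishikawa cells (horizontal axis) and T-47D cells (vertical axis) for 76 members, with the line of equality. Colors give the line in which a member was called higher: both (5 genes), Ishikawa (5), T-47D (16) or neither (50). MRPL1 lies at 0.55 and 0.07, MRPL17 at 0.19 and 0.55.

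Few members responded differently in the 2 lines when the difference itself was tested, as an interaction over all 16 libraries. At 2 h none passed (1.4% of all genes higher and 1.28% lower in T-47D cells), with 1 member at an unadjusted p under 0.05 and 0 called by DESeq2. At 4 h the median difference, T-47D minus Ishikawa, was -0.09, and 11 of 76 members were above 0 (14.5%, against 53.7% of all genes), but MRPL1 alone passed (lower, 1.32% of members against 2.83% of all genes; none was higher, against 3.21%). At 8 h the median was 0.01, 3 members passed with the larger change in T-47D cells (3.95%, against 5.32%) and 1 with the smaller (1.32%, against 4.7%). MRPL1 had a difference of -0.40 after 4 h (SE 0.11, adjusted p = 0.037) and -0.48 after 8 h (SE 0.11, adjusted p = 0.00743), by edgeR. The 8 h call for MRPL1 was kept in all 16 fits that left out a library and under each alternative of the processing, while the 4 h call was kept in 8 of 16. It was lost without Ishikawa 0 h replicate 2, either Ishikawa 4 h library, either 0 h or 2 h library of T-47D cells, or T-47D 4 h replicate 2 (adjusted p from 0.0517 to 0.169 by edgeR). Without Ishikawa 0 h replicate 1, 4 members passed at 8 h with the smaller change in T-47D cells.

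The 3 members with the larger change in T-47D cells at 8 h were MRPL17, with a difference of 0.36 (SE 0.09, adjusted p = 0.00976), MRPS25, with 0.38 (SE 0.09, adjusted p = 0.0117), and MRPL24, with 0.29 (SE 0.09, adjusted p = 0.0449 by edgeR). MRPL24 is a large subunit protein beside the exit tunnel. It had 75.2 and 77.2 CPM before E2 and 95.6 and 94.3 after 8 h in T-47D cells, without overlap, and 42.3 and 44.98 CPM before E2 and 42.1 and 46.8 after 8 h in Ishikawa cells, with overlap. MRPS25 in Ishikawa cells had 46.6 and 51.0 CPM before E2 and 45.1 and 51.3 after 8 h, again overlapping. Without Ishikawa 8 h replicate 1 none of the 3 passed (0.29 for MRPL17, 0.25 for MRPS25 and 0.18 for MRPL24). Without T-47D 0 h replicate 1 or T-47D 8 h replicate 1, 1 of the 3 passed. MRPS25 was also lost without Ishikawa 0 h replicate 2 (0.31), and MRPL24 was kept in 2 of 16 such fits, those without Ishikawa 0 h replicate 1 or Ishikawa 8 h replicate 2. It was also lost by DESeq2 (0.26, adjusted p = 0.0593), with RLE scaling (0.26, adjusted p = 0.079) and with the late Ishikawa libraries as 1 group (0.25, adjusted p = 0.0732).

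**Figure D4:**
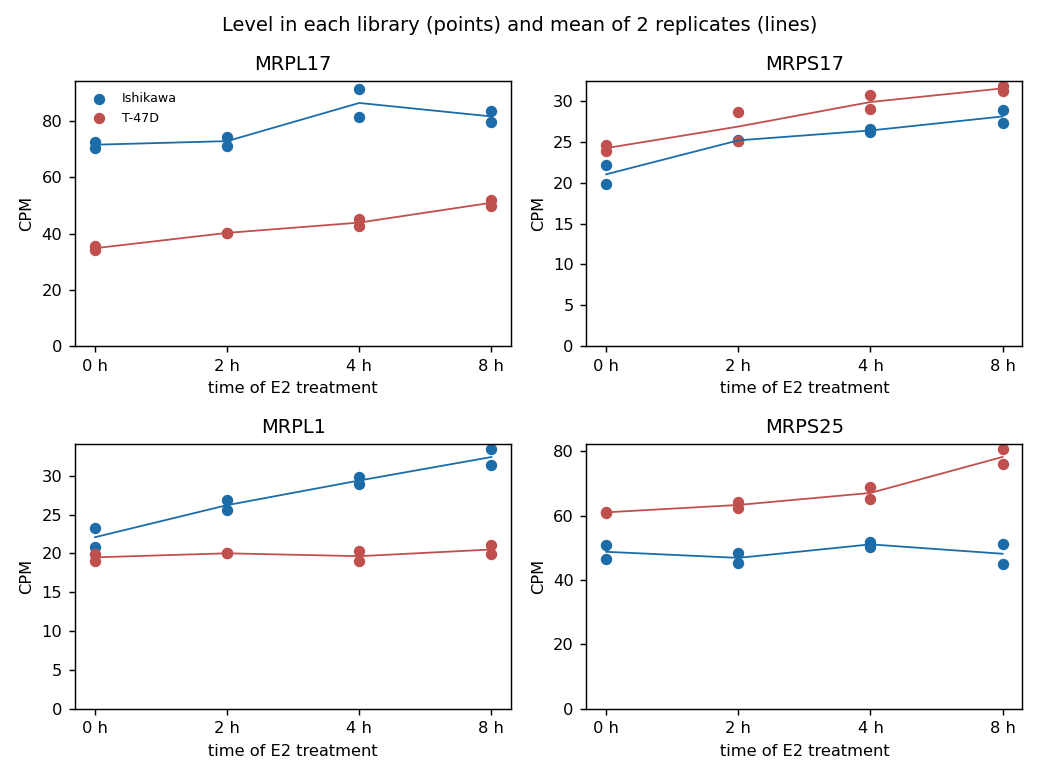
Level in CPM (vertical axis, from 0) of MRPL17, MRPS17, MRPL1 and MRPS25 in each library at each time of E2 treatment, Ishikawa in blue and T-47D in red, with lines through the means of 2 replicates. MRPS17 rises in both lines, MRPL1 from 23.3 and 20.8 to 31.4 and 33.4 CPM in Ishikawa cells, and MRPL17 and MRPS25 by the larger amount in T-47D cells at 8 h.

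By position in the ribosome, the 28 large subunit proteins with a bacterial homologue held 8 of the 13 Ishikawa calls at 4 h, 5 of the 10 after 8 h and 10 of the 21 T-47D calls at 8 h. Their median log2 fold change was 0.18, 0.12 and 0.10 in these comparisons. Of all genes tested, 7.66%, 12% and 15.4% were called higher in the same comparisons. Of the 21 mitochondria-specific proteins of the large subunit 2, 1 and 2 rose, with medians of 0.10, 0.00 and 0.05, and 3 of the 4 members that fell at 4 h in T-47D cells belonged to this class. Of the 14 small subunit proteins with a bacterial homologue that were tested 1, 2 and 4 rose, with medians of 0.14, 0.09 and 0.13. Of the 10 mitochondria-specific ones 2, 2 and 5 rose, with medians of 0.13, 0.07 and 0.13. At 8 h in T-47D cells both small subunit medians were above those of the large subunit classes. MRPS18A and MRPS18B, the paralogues without a bacterial position, passed in none of these comparisons, nor did MRPS36, which has been assigned to the oxoglutarate dehydrogenase complex and not to the ribosome. In T-47D cells MRPS36 had a log2 fold change of -0.14 after 8 h (adjusted p = 0.161 by edgeR).

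The GC content of the transcripts moved with these responses. The median was 48% over the 76 members, 40.8% (36.9% to 46.8%) for the 10 that rose at 8 h in Ishikawa cells, 46.8% (37% to 64.6%) for the 21 that rose at 8 h in T-47D cells, and 60.3% (56.9% to 66.7%) for the 4 that fell at 4 h in T-47D cells. Across the members, the correlation of the log2 fold change with GC content was -0.37 after 4 h and -0.53 after 8 h in Ishikawa cells and -0.43 after 4 h and -0.10 after 8 h in T-47D cells, against -0.09, -0.19, -0.15 and -0.10 across all genes with an annotated transcript. With the offset for GC content and length, the number called at 8 h in Ishikawa cells was again 10, but 6 of these were among the first 10. MRPL19 (0.14, adjusted p = 0.102), MRPS23 (0.15, adjusted p = 0.0952), MRPL30 and MRPL35 were lost, and MRPL4, MRPL12, MRPS12 and MRPS34 were gained. At 4 h 15 were called in that line, 9 of them among the first 13. In T-47D cells at 4 h 13 were higher, of which 4 were among the first 7 (MRPL19, MRPL42 and MRPL50 were lost), and the 1 that was lower, MRPS36, was none of the first 4. The T-47D calls at 8 h moved less, with 23 higher, 20 of them among the first 21. The share of all genes called with the offset was not counted. Whether the members differ from all genes under the offset therefore cannot be read from these counts. Canonical transcripts of the 10 members first called at 8 h in Ishikawa cells were also longer. Their median was 2911.5 bases, against 1287.5 over the 76 members and 1218 for the 21 called at 8 h in T-47D cells. The offset used this canonical length too. It is far above the median length of a gene's coding transcripts for MRPL19, MRPL30, MRPL35, MRPL42 and MRPS23. For MRPL3 and MRPS35 it is slightly longer, and for MRPL1, MRPS10 and MRPS17 it is the same. Beyond this offset, the part of GC content or length in the result was not tested.

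**Figure D5:**
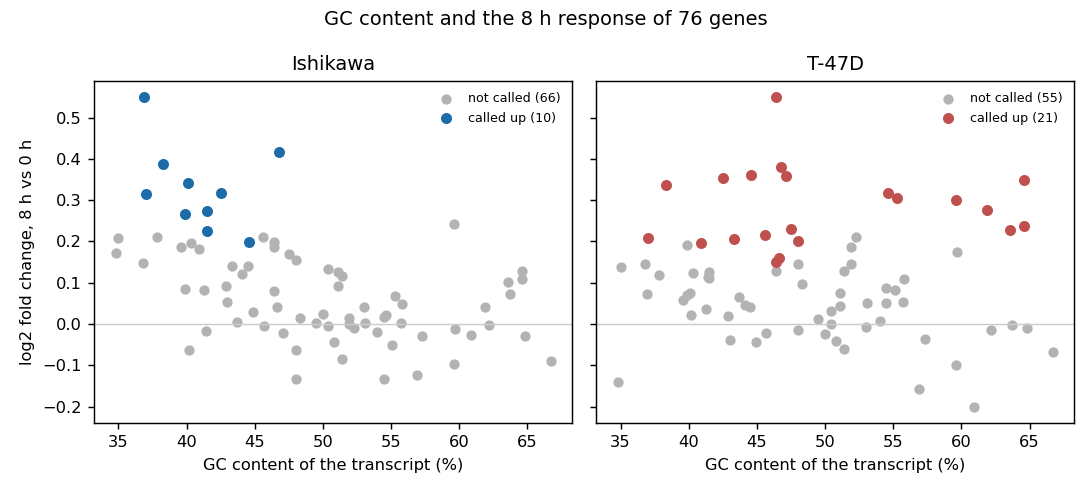
Log2 fold change at 8 h against 0 h (vertical axis) and GC content of the transcript in percent (horizontal axis) of 76 members in Ishikawa (left) and T-47D cells (right), with members called higher in color. The 10 called in Ishikawa cells lie between 36.9% and 46.8% GC, the 21 called in T-47D cells between 37% and 64.6%.

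Other genes of mitochondrial translation were counted from lists of the pathway, to be read against the 12% of all genes called higher and 10.1% called lower at 8 h in Ishikawa and the 15.4% and 14.3% in T-47D cells, with median log2 fold changes at 8 h, Ishikawa first, of 0.06 and 0.09 for the other subunits, 0.13 and 0.07 for translation factors, 0.03 and 0.15 for assembly factors and 0.06 and 0.07 for aminoacyl-tRNA synthetases (all genes: -0.01 and 0.00). Of the 6 ribosome subunits with other symbols none rose at 8 h in Ishikawa cells (0 at an unadjusted p under 0.05) and PTCD3 rose in T-47D cells, from 52.2 and 48.6 CPM before E2 to 61.8 and 60.5 after 8 h (0.28, adjusted p = 0.000892 by edgeR, and a difference between the lines of 0.26, adjusted p = 0.0394, called in 3 of 16 fits without a library). Of the 13 translation factors none passed at 8 h in Ishikawa cells (4 at an unadjusted p under 0.05) and 3 rose in T-47D cells. RMND1, needed for mitochondrial translation, was the highest of them (0.48, adjusted p = 5.9e-05), followed by the elongation factor GFM1 (0.18), while the elongation factor TUFM had 0.09 (adjusted p = 0.137). Of the 25 assembly factors 3 rose in Ishikawa cells, the share of all genes, and 11 in T-47D cells, and none fell. The largest were GTPBP10 (0.51, adjusted p = 0.00165), a GTPase of large subunit assembly, and FASTKD2 (0.30) in Ishikawa, and in T-47D cells YBEY (0.77, adjusted p = 0.00051), an RNA-processing nuclease, and the ribosomal RNA methyltransferase MRM1 (0.46). Of the 20 aminoacyl-tRNA synthetases and related enzymes 2 rose (MARS2 and QRSL1) and 2 fell (HARS2 and TARS2) in Ishikawa cells, and 5 rose in T-47D cells, led by MARS2 (0.69) and RARS2 (0.27). Of the Ishikawa calls MARS2 held in 8 of 8 fits that left out a library, HARS2 and TARS2 in 2 each and QRSL1 in 1.

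Of the 9 genes that transcribe mitochondrial DNA and maintain its RNA, 6 rose at 8 h in each line and none fell, against 12% and 10.1% of all genes in Ishikawa and 15.4% and 14.3% in T-47D cells (median 0.27 in Ishikawa and 0.26 in T-47D cells). TFAM, which packages mitochondrial DNA and activates its transcription, had 112.3 and 93.0 CPM before E2 and 136.1 and 139.1 after 8 h in Ishikawa cells (0.42, adjusted p = 0.0012 by edgeR) and 84.7 and 76.6 against 91.8 and 109.8 in T-47D cells (0.32, adjusted p = 0.00188). The 0 h and 8 h libraries did not overlap in either line. POLRMT, the mitochondrial RNA polymerase, rose by 0.28 and 0.16, PNPT1, an RNA-processing exonuclease, by 0.43 and 0.53, and TFB2M, a transcription factor of the organelle, by 0.34 and 0.46. The T-47D call of POLRMT (adjusted p = 0.0424 by edgeR) held in 1 of 8 fits that left out a library. In Ishikawa cells POLRMT and PNPT1 passed at 2 h, when no ribosomal protein gene did. Those calls held in 5 and 3 of 8 such fits. With the GC and length offset MRPS17 also passed at that time. In T-47D cells TFB2M passed at 2 h, as did MRPL15 and MRPL17. The order of these genes in time was not tested.

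Of 10 regulators of mitochondrial biogenesis, 3 rose and 1 fell in Ishikawa cells, and 3 rose and 2 fell in T-47D cells, against 12% and 10.1% of all genes in Ishikawa and 15.4% and 14.3% in T-47D cells, with medians of 0.15 and 0.08 after 8 h. The coactivator PPARGC1B rose in both lines. Its level was 15.2 and 14.6 CPM before E2 and 26.3 and 31.3 after 8 h in Ishikawa cells (0.94, adjusted p = 5.98e-06 by edgeR) and 5.73 and 6.26 against 10.6 and 11.3 in T-47D cells (0.87, adjusted p = 2.03e-05). PPARGC1A fell in Ishikawa cells, from 7.02 and 5.56 CPM to 3.51 and 2.95 (log2 fold change -0.96, adjusted p = 0.00136), and had 1.85 and 1.63 CPM before E2 and 2.24 and 2.19 after 8 h in T-47D cells (0.34, adjusted p = 0.311). The difference between the lines was 1.30 (adjusted p = 0.00864). MYC, a transcription factor that drives ribosome and mitochondrial genes, rose from 114.1 and 116.4 to 151.9 and 165.8 CPM in Ishikawa cells (0.46) and from 5.70 and 4.83 to 32.6 and 36.0 CPM in T-47D cells (2.70), a difference of 2.24 (adjusted p = 3.08e-10). NRF1 passed in neither line at 8 h (0.09, adjusted p = 0.434, and -0.04, adjusted p = 0.746). GABPB2, a partner of GABPA, and the nuclear receptor ESRRA fell in T-47D cells by 0.32 and 0.20, and the call of ESRRA held in 4 of 8 fits that left out a library. The remaining calls at 8 h were rises, of GABPB1 in Ishikawa cells (7 of 8 such fits) and of PPRC1 in T-47D cells (8 of 8).

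Neighboring genes limit some of these counts. In the GENCODE annotation, 29 of the 77 members share exon sequence with another gene, 6 of them on the same strand, among them MRPS17 (with NIPSNAP2), MRPL28 and MRPL53. Whether counting used strand is not stated in the sources used here. Pseudogene rows exist for MRPL42, MRPL45 and MRPS31, and values of these genes are uncertain. Of the 76 members 26 (34.2%) start within 1000 bases of a gene transcribed in the opposite direction, against 12.4% of all genes. Among the 15 that rose in Ishikawa cells 2 did so, and among the 22 that rose in T-47D cells 6.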

How the data were processed

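Per the labels and the methods of the study, the authors mapped reads of poly(A) RNA with HISAT2 on hg19 and counted them per gene by featureCounts. The deposited values are raw counts, in a table for each line. Versions, the strand setting and the handling of reads with several alignments are not given in the sources used here. Among counts between 1 and 10, 71.2% to 74.6% per library were even, so a count need not be 1 independent fragment.

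Groups follow the line and time in the labels. R 4.3.3 and edgeR 4.0.16 were used (filterByExpr, TMM, quasi-likelihood F-test, Benjamini-Hochberg over all genes tested, adjusted p under 0.05). Time was a factor over the 8 libraries of a line (15787 genes in Ishikawa, 15594 in T-47D cells), and differences between lines came from all 16 libraries together (17090 genes). The estimated biological variation was 6.45% and 5.02%. A standard error is the absolute fold change on the log2 scale over the square root of F. All 77 members were found in the GENCODE annotation of GRCh37, the source of positions, lengths and GC content. The number of sample columns not used was 0, and no replicates held identical values.

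The members and the gene lists were chosen with earlier results of these data known. The rule for named members takes, per line, up to 4 called changes in each direction at 8 h (largest first), up to 6 calls at 2 h, and the 3 highest and 3 lowest levels per length. It adds up to 6 calls of the 8 h interaction, members called in opposite directions at 8 h, up to 4 differences at 0 h and members left out by the filter. From each list it takes the 2 largest called changes per direction and line at 8 h, and PPARGC1A, PPARGC1B, MYC, NRF1, TFAM, POLRMT, TUFM, GREB1 and PGR. PGR rose by 3.75 in Ishikawa and by 1.09 in T-47D cells at 8 h. Other genes with values, and the members listed under small counts or overlaps, were chosen after their values were seen. Replicate numbers did not pair the libraries (correlations of deviations -0.21 to 0.11).

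The script was tested on simulated data, in which 100 genes per comparison changed by 0.3 and 100 by 1 on the log2 scale. Of changes of 0.3 on the log2 scale it recovered 18.2% at 8 h in Ishikawa cells (15627 genes tested), 42% in T-47D cells (15400) and 7% in the interaction (16929). Changes of 1 were recovered in 79.8%, 81.4% and 63.3% of genes. Of the calls made, 11%, 9.7% and 9.21% were false, above the nominal level of 0.05. Many more genes were called in the real data (1890 higher at 8 h in Ishikawa cells alone), so these shares need not hold there. The alternatives were DESeq2 1.42.0, RLE scaling, no filter, an adjusted p under 0.01, a replicate block, an offset for GC content and length, only the groups compared, the Ishikawa 4 h and 8 h libraries as 1 group, and each library left out in turn.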

Additional observations from a re-analysis of the deposited data

Results flagged for a closer look

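The response of 4 members differed at 4 h or 8 h between the lines by the test of the interaction (edgeR's quasi-likelihood test, Benjamini-Hochberg adjustment over 17090 genes). MRPL1 had the smaller change in T-47D cells, with a difference of -0.40 on the log2 scale at 4 h (adjusted p = 0.037) and of -0.48 at 8 h (adjusted p = 0.00743). MRPL17 (0.36, adjusted p = 0.00976), MRPS25 (0.38, adjusted p = 0.0117) and MRPL24 (0.29, adjusted p = 0.0449) had the larger change in T-47D cells at 8 h. Of 16 fits that left out 1 library, the call was kept in 8 for MRPL1 at 4 h, 16 for MRPL1 at 8 h, 14 for MRPL17, 13 for MRPS25 and 2 for MRPL24. MRPL24 was also lost by DESeq2, with RLE scaling and with the late Ishikawa libraries as 1 group (adjusted p = 0.0593, 0.079 and 0.0732).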

How the results depend on the processing

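With 2 libraries per group and small changes, calls near the threshold moved with single libraries, and the cause was not tested except where fewer libraries or a stricter threshold entered by construction. Of 630 alternative values of counts and medians 543 kept their call or stayed within the margin, and of 2165 for single genes 1896 did, 246 lost and 8 gained a call, and 15 changed sign, none of them called. In the text that follows, counts are of members called.

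With the replicate block, 0 rose in T-47D cells at 2 h and 0 were lower in the interaction at 4 h. The block moved no other count past the margin. By DESeq2, 1 rose in Ishikawa cells from 2 h to 8 h, 2 were lower in the interaction at 4 h and 3 at 8 h, and the median difference at 0 h was 0.1522. RLE scaling gave 2, 2 and 0.1522 for the last 3. Without a filter, 2 rose in Ishikawa cells from 2 h to 8 h, 6 rose in T-47D cells at 2 h, and 2 were lower in the interaction at 8 h. With the GC and length offset, 1 rose in Ishikawa cells at 2 h and 1 from 2 h to 8 h, 13 rose and 1 fell in T-47D cells at 4 h, 1 fell there at 8 h and 1 from 2 h to 8 h (median 0.03882), 2 were lower in the 8 h interaction and the median at 0 h was 0.1047. With only the groups compared, 8 rose at 4 h and 3 from 2 h to 8 h in Ishikawa cells, while 6 rose at 2 h in T-47D cells. With the Ishikawa late libraries as 1 group 17 rose. At an adjusted p under 0.01, 3 and 6 rose in Ishikawa cells at 4 h and 8 h, 0 in T-47D cells at 2 h, 4 rose and 0 fell at 4 h, and the interaction had 0 lower at 4 h and 1 higher at 8 h.

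Leaving out 1 library gave, in Ishikawa cells, 0 to 8 higher at 2 h (median 0.007666 to 0.02211), 1 to 19 at 4 h (0.09796 to 0.1839), 6 to 13 at 8 h (0.0007707 to 0.1056) and 0 to 2 from 2 h to 8 h (0.001915 to 0.08765). In T-47D cells it gave 0 to 6 at 2 h (0.009426 to 0.04701), 3 to 14 higher and 0 to 5 lower at 4 h (0.01531 to 0.05989), 18 to 23 higher and 0 to 1 lower at 8 h (0.07427 to 0.1162), and 8 to 14 higher and 0 to 1 lower from 2 h to 8 h (0.06367 to 0.07133). The interaction had medians of -0.04466 to 0.03238 at 2 h, 0 to 1 lower at 4 h (-0.1499 to -0.0597), and 0 to 3 higher and 1 to 4 lower at 8 h (-0.04559 to 0.04476). At 0 h 33 to 37 were higher and 23 to 27 lower (0.09836 to 0.1537).

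Signs changed at 8 h for MRPL1 in T-47D cells (-0.06677 with the offset), and in Ishikawa cells for MRPS25 (0.02563 with the late libraries as 1 group, 0.05012 without 0 h replicate 2, and -0.1301 to 0.07849 over all fits without 1 library), MRPL24 (-0.02357 without 0 h replicate 1 and -0.06923 to 0.1086 over such fits), PTCD3 (-0.002099 without a filter, -0.05576 with the offset, -0.01543 without 0 h replicate 2 -0.005236 without 8 h replicate 1 and up to 0.04119), RARS2 (-0.03474 with the offset), TUFM (-0.02376 to 0.1127) and MRM1 (-0.04621 to 0.1525), both lowest without 8 h replicate 2. In T-47D cells NRF1 ranged from -0.09408 to 0.01744 (without 8 h replicate 2) and TARS2 from -0.001479 (without 8 h replicate 1) to 0.1118.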
